A study of Mus musculus with 8 samples.

Results

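Eribulin and paclitaxel both stop dividing cells by acting on microtubules, but in opposite ways: eribulin blocks the growth of microtubule ends, whereas paclitaxel locks tubulin into the polymer. The open chromatin of PB3 cells resistant to eribulin (PB3-ERI-R, 2 libraries) was compared here with that of PB3 cells resistant to paclitaxel (PB3-PAC-R, 2 libraries), which are 4 of the 8 libraries of the series, over all 57417 regions of its count table and 14969 gene loci. Vinorelbine, a vinca alkaloid, prevents microtubule assembly, so the line resistant to it (PB3-VIN-R, 2 libraries) supplied a second contrast of a destabilizer with paclitaxel. PB3-Parental (2 libraries) was untreated. PB3 is a mouse breast cancer line labelled Er-/Pr-/Her2-, and all 4 lines share this label and origin. Each resistant derivative was selected with 300, 500 and 800 nM of its drug. The labels call the derivatives clones, so each resistance is represented by 1 selected line. The question behind the series is whether epigenetic reprogramming by these drugs turns mesenchymal tumour cells epithelial.

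ATAC-seq uses a transposase to cut and tag DNA that is not packed away in nucleosomes. The number of tagged fragments over a region therefore measures how accessible it was. Accessibility at a gene is not its expression, and in bulk cells fewer cells of a type and less accessibility per cell cannot be told apart. Epithelial cells are held together by cadherin, claudin and desmosome proteins under transcription factors of the Grainyhead, Ovo-like and ETS families. In the epithelial-mesenchymal transition (EMT), factors such as Zeb1 silence these genes and matrix and cytoskeletal genes open, and microRNAs of the miR-200 family hold Zeb1 back.

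Libraries held 10521964 to 24052237 counts, and values are given as CPM, the counts scaled to library size after TMM scaling between libraries. Regions and loci were scaled separately, so CPM of a region and of a locus are not on the same scale. Nothing in the labels says that the 2 libraries of a line came from separate cultures, so the spread behind each p-value is that between these libraries and may be technical. The PB3-ERI-R libraries stood apart from all others. They correlated with each other at 0.977 over regions and with the PB3-PAC-R libraries at 0.149 to 0.206, while PB3-VIN-R and PB3-PAC-R libraries correlated at 0.965 to 0.982. Every result on PB3-ERI-R rests on these 2 libraries. The contrast of PB3-VIN-R with PB3-PAC-R does not compare them, but they still entered its scaling and its shared estimate of spread. A fit without them is given in the closing observations. The PB3-ERI-R libraries correlated with the PB3-Parental libraries at 0.179 to 0.230. They alone held high counts over a block around Cdkn2b and over 3 regions of chromosome Y near 1 gene, described below and in the closing observations. These values bear on whether PB3-ERI-R derives from PB3 as the labels have it, and so on what each of its differences stands for. Its descent was not tested. The loci of the labelled receptors were accessible to different degrees. Esr1 had 52.4 and 46.0 CPM in PB3-ERI-R, against 84.9 and 80.4 CPM in PB3-PAC-R. Erbb2 had 75.3 and 64.9 CPM in PB3-ERI-R, against 37.7 and 34.2 CPM in PB3-PAC-R, and no region was measured at Pgr.

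The eribulin-resistant line had another chromatin landscape than the paclitaxel-resistant line. With edgeR's quasi-likelihood test at a Benjamini-Hochberg adjusted p under 0.05, 20282 regions were more accessible in PB3-ERI-R (gained) and 21609 were less accessible (lost), which is 35.3% and 37.6% of the 57415 regions tested. A change of at least 2-fold was called at 14107 gained and 18974 lost regions (24.6% and 33.0%, together 57.6%). Without scaling between libraries, 15133 regions were gained and 25590 lost, so that 37.2% of calls were gains against 48.4% with it, and the median log2 fold change of all regions was -0.33 against 0.04. The share called was 73.0% of regions, so a single call says little and the size and the direction of a change carry more. In PB3-VIN-R against PB3-PAC-R, 5 regions were called, or 0.00871% of those tested. The median absolute log2 fold change was 1.41 in PB3-ERI-R and 0.15 in PB3-VIN-R, each against PB3-PAC-R. The PB3-PAC-R libraries are shared by both comparisons.

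**Figure D1:**
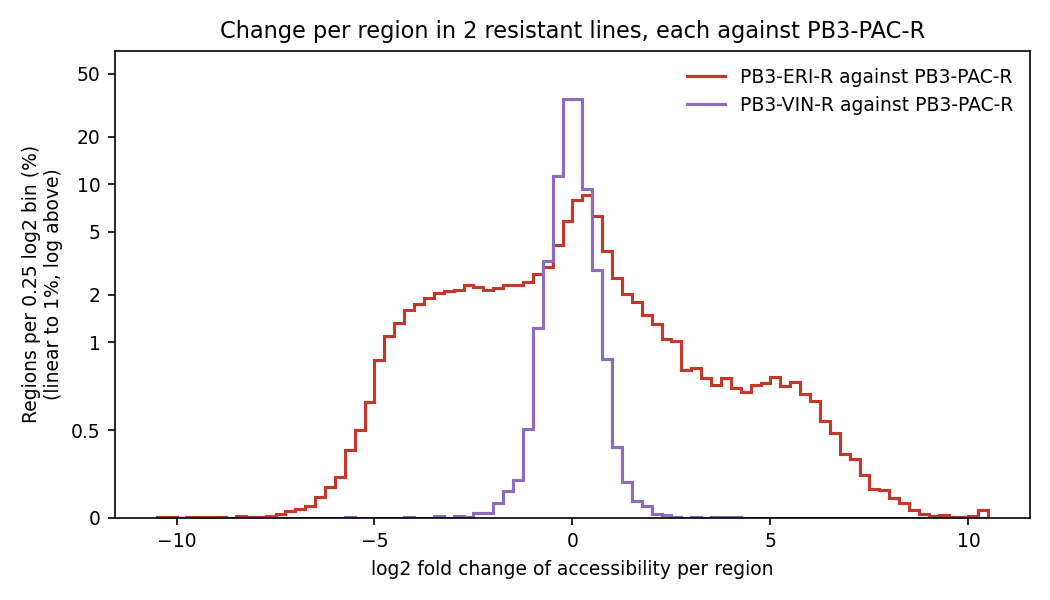
Distribution of log2 fold changes over regions for PB3-ERI-R and for PB3-VIN-R, each against PB3-PAC-R, as the percentage of regions (linear to 1%, logarithmic above) per bin of 0.25 log2. The outermost bins also hold the more extreme values. The middle 90% of regions spanned -4.36 to 5.44 in PB3-ERI-R and -0.53 to 0.48 in PB3-VIN-R.

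The difference was smallest at the ends of genes, where promoters lie. Of the 12307 regions within 1 kb of a gene end, 42.5% were gained, 10.9% were lost and the median absolute log2 fold change was 0.47. In gene bodies 32.4% were gained and 45.8% lost, with a median absolute log2 fold change of 1.85, and beyond 50 kb from any protein-coding gene these were 33.5%, 51.5% and 2.57. In this fit, losses thus lay mostly away from gene ends. The balance at gene ends moved with the scaling and summing of regions. When gene-end regions alone were summed to loci and scaled on their own, 2320 of 10526 loci were gained and 2388 lost. Their median log2 fold change was -0.03, against 0.33 for gene-end regions in the fit of all regions. The deposited peak list of PB3-ERI-R held 30778 peaks and that of PB3-PAC-R 39414. Of the PB3-ERI-R peaks, 63.47% overlapped a PB3-PAC-R peak by at least 1 bp (95% exact binomial interval 62.93 to 64.01), and 49.00% of PB3-PAC-R peaks overlapped a PB3-ERI-R peak (48.51 to 49.50). For PB3-VIN-R, 82.12% of peaks overlapped a PB3-PAC-R peak, and 96.13% of PB3-PAC-R peaks overlapped a PB3-VIN-R peak. The lists hold 1 set of peaks per line, and their intervals cover counting error only.

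**Figure D2:**
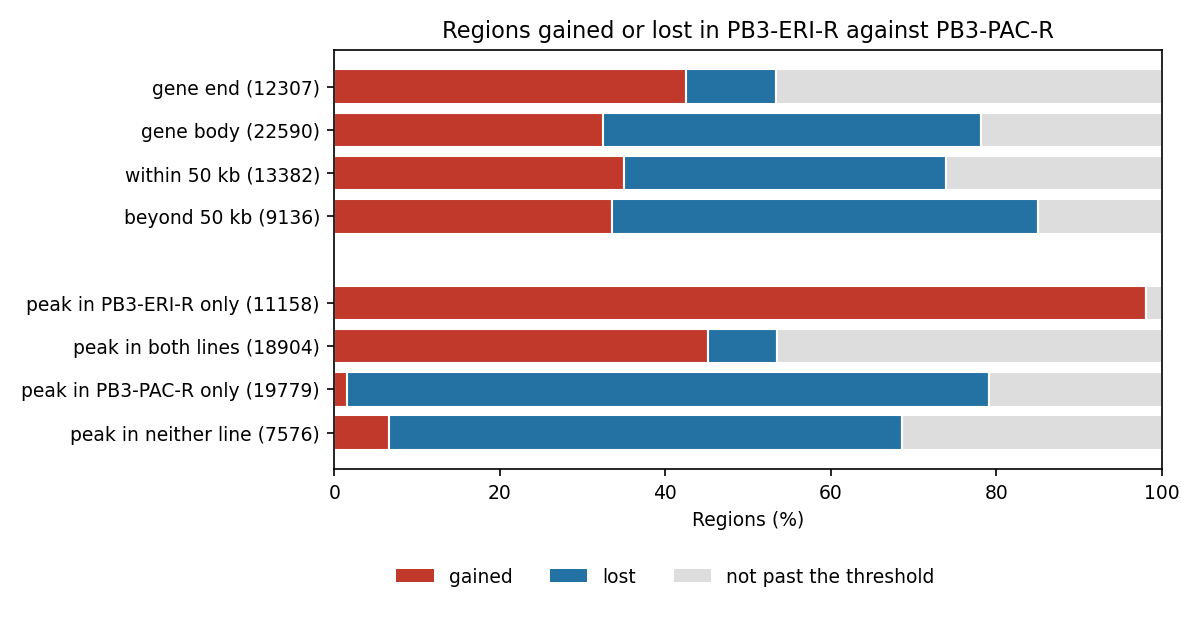
Percentage of regions gained, lost or not past the threshold in PB3-ERI-R against PB3-PAC-R, by place relative to protein-coding genes and by the peak list that holds the region, with the number of regions in brackets. In the fit of all regions, those at gene ends were called least, and 45.8% of gene body regions were lost against 10.9% of gene end regions.

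The gene locus, the sum over all regions nearest to a gene and within 50 kb of it, gave 4403 gained and 4634 lost loci, 29.4% and 31.0% of those tested and 60.4% together. The sum often hid opposite changes. Of 9455 loci with 2 or more regions, 3897 (41.2%) held both a gained and a lost region. Of 5932 loci not past the threshold, 3403 (57.4%) still held a called region. Loci that moved as a whole were fewer: with 3 or more regions, all were gained at 373 and all lost at 271. Where a locus is described below, its regions are therefore counted as well. Every count of gained and lost loci in a list is to be read against the 29.4% and 31.0% over all loci. Values from gene-end regions come from a separate fit that was scaled on its own. Its list counts are read against its 2320 gained and 2388 lost of 10526 loci. Whole 5 Mb windows had also shifted together, so each locus was fitted again after each line was shifted by its window medians, which is called the window correction below. Corrected values are given for some named loci only. Uncorrected values, such as those of Mapre3 and Lox, may therefore hold a window shift as well.

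Genes of epithelial adhesion and junctions were more accessible in PB3-ERI-R. Of 33 measured loci, 26 were gained and 2 lost, with a median log2 fold change of 1.15, against a median of -0.01 over all loci and the 29.4% gained in the background. Cdh1, which encodes E-cadherin, the main adhesion protein of epithelial cells, had 236.0 and 201.5 CPM in PB3-ERI-R, against 112.6 and 94.0 CPM in PB3-PAC-R. The log2 fold change was 1.08 ± 0.16 (SE, adjusted p = 0.000179), and the lines did not overlap. Its start region had 58.8 and 53.6 CPM in PB3-ERI-R, against 2.78 and 2.81 CPM in PB3-PAC-R, a log2 fold change of 4.33 ± 0.24, while 3 of its 10 regions were lost. Epcam, an epithelial surface adhesion molecule, had 174.7 and 167.1 CPM in PB3-ERI-R, against 35.2 and 40.3 CPM in PB3-PAC-R, and all 5 of its regions were gained. Dsp encodes desmoplakin, which anchors keratin filaments to desmosomes. It had 205.3 and 211.1 CPM in PB3-ERI-R, against 27.4 and 22.5 CPM in PB3-PAC-R, a log2 fold change of 3.06 ± 0.14 (adjusted p = 7.29e-08), with all 7 regions gained.

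Some junction genes were close to closed in the paclitaxel-resistant line. Cldn8, a claudin of tight junctions, had 68.1 and 56.1 CPM in PB3-ERI-R, against 0.294 and 0.473 CPM in PB3-PAC-R. The vinorelbine-resistant libraries held 0.142 and 0.276 CPM there. Rab25, a small GTPase of epithelial recycling endosomes, had 26.8 and 27.2 CPM in PB3-ERI-R, against 0.515 and 0.158 CPM in PB3-PAC-R. Prss8 and St14 encode prostasin and matriptase, membrane serine proteases of epithelia, and their log2 fold changes were 6.60 ± 0.43 and 3.24 ± 0.15. In this list Cldn1 and Pkp2 were lost, at -0.62 ± 0.14 and -0.51 ± 0.12.

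Epithelial transcription and splicing factors were gained in most cases. Of 19 measured loci, 14 were gained and 4 lost, with a median log2 fold change of 2.93, or 1.66 after the window correction. Ehf and Elf5 are neighbouring genes for epithelial ETS factors, and Elf5 directs the alveolar secretory lineage of the mammary gland. Ehf had 352.4 and 304.5 CPM in PB3-ERI-R, against 8.61 and 7.96 CPM in PB3-PAC-R, a log2 fold change of 5.31 ± 0.15 (adjusted p = 1.91e-08), with all 8 regions gained. Elf5 had 204.9 and 154.2 CPM in PB3-ERI-R, against 4.78 and 4.49 CPM in PB3-PAC-R. Esrp1, which sets the epithelial splice forms of its targets, had 166.8 and 170.8 CPM in PB3-ERI-R, against 5.15 and 6.15 CPM in PB3-PAC-R. None of these loci came near overlap between the lines. Tfap2c, the AP-2 gamma factor, was gained by 4.49 ± 0.19, and Grhl2 and Ovol2, which keep the epithelial program on, were gained by 3.68 ± 0.19 and 4.56 ± 0.30 on the log2 scale. The direction was not uniform, because Klf4, a factor of differentiating epithelium, was lost at -1.74 ± 0.10.

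Keratins, the filaments of epithelial cells, split. Of 12 measured loci, 6 were gained and 3 lost, with a median log2 fold change of 0.52. Krt14, a basal keratin, had 141.5 and 116.7 CPM in PB3-ERI-R, against 11.7 and 9.93 CPM in PB3-PAC-R. Krt5, its partner, had 39.2 and 30.1 CPM in PB3-ERI-R, against 6.77 and 5.36 CPM in PB3-PAC-R. Krt8 and Krt18, the keratins of simple epithelium, were accessible in both lines: Krt8 had 197.4 and 154.9 CPM in PB3-ERI-R and 194.7 and 125.3 CPM in PB3-PAC-R (log2 fold change 0.14 ± 0.28, adjusted p = 0.695). Krt16 was lost at -1.68 ± 0.21. Luminal markers were gained at 11 and lost at 4 of 22 loci, and basal markers were gained at 8 and lost at 4 of 18, with medians of 0.52 (0.28 after the window correction) and 0.21. Without PB3-PAC-R replicate 1, 2 basal loci were lost. Prlr, the prolactin receptor, had 143.9 and 137.3 CPM in PB3-ERI-R, against 1.91 and 1.34 CPM in PB3-PAC-R, with all 5 regions gained. Kit, a receptor of luminal progenitors, had 17.1 and 14.8 CPM in PB3-ERI-R, against 0.147 and 0.0788 CPM in PB3-PAC-R. Gata3, the master factor of luminal cells, went the other way, with 96.1 and 84.6 CPM in PB3-ERI-R against 182.9 and 178.8 CPM in PB3-PAC-R, in a window that was lower as a whole (median log2 fold change -1.01), and stood at -0.12 (adjusted p = 0.342) after the window correction. Both mammary lineages thus had gained and lost loci.

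**Figure D3:**
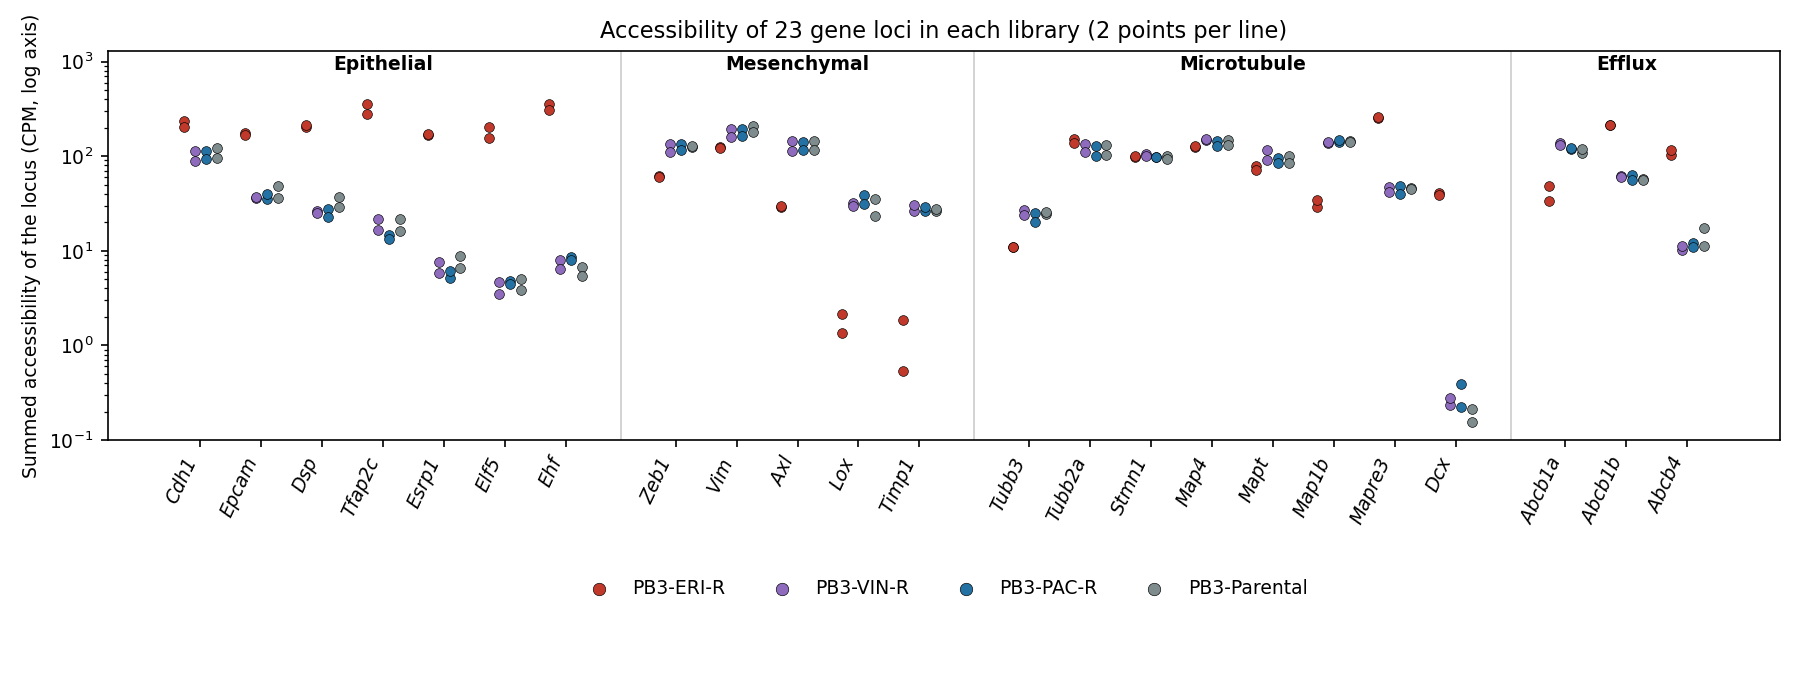
Summed accessibility (CPM, log axis) of 23 gene loci in each of the 8 libraries, 2 points per line, in the order PB3-ERI-R, PB3-VIN-R, PB3-PAC-R and PB3-Parental. Points of the last 3 lines lie together at each locus, while PB3-ERI-R lies above them at Cdh1 to Ehf, below them at Zeb1, Vim, Axl, Lox and Timp1, and above, among or below them at microtubule and efflux loci.

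The microRNAs of the miR-200 family and miR-205 repress Zeb1 and its relative Zeb2, and the mature forms show how they divide. They are printed in RNA letters from RefSeq (GRCm38.p6), with the seed, bases 2 to 8, in capitals. The regions beside them were chosen after values were seen.
mmu-miR-200b-3p: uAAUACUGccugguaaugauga
mmu-miR-200c-3p: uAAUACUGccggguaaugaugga
mmu-miR-429-3p: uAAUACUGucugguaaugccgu
mmu-miR-200a-3p: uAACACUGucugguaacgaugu
mmu-miR-141-3p: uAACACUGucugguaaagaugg
mmu-miR-205-5p: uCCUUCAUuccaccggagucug
The first 3 share the seed AAUACUG and the next 2 the seed AACACUG. Their genes lie in 2 clusters, on chromosomes 4 and 6. A region 3.58 kb from Mir200b in the chromosome 4 cluster (chr4:156059332-156060109) had 77.8 and 60.0 CPM in PB3-ERI-R, against 1.60 and 1.03 CPM in PB3-PAC-R. The region over Mir200c (chr6:124718039-124719374), 0.0540 kb from Mir141, had 60.5 and 44.4 CPM in PB3-ERI-R, against 1.54 and 1.44 CPM in PB3-PAC-R. The region 2.43 kb from Mir205 (chr1:193509963-193510384) had 57.5 and 43.2 CPM in PB3-ERI-R, against 0.185 and 0.274 CPM in PB3-PAC-R. Log2 fold changes were 5.69 ± 0.32, 5.13 ± 0.28 and 7.74 ± 0.46, with adjusted p of 3.52e-09, 2.62e-09 and 4.32e-09. PB3-VIN-R held 1.72 and 1.79 CPM at the chromosome 4 region and 0.153 and 0.416 CPM at the Mir205 region. A neighbouring region 5.53 kb from Mir200c, at Phb2, held 66.9 and 73.4 CPM in PB3-ERI-R and 54.9 and 68.7 CPM in PB3-PAC-R, so the gain at Mir200c did not extend over its neighbour.

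Promoters that were gained at epithelial genes and lost at mesenchymal and tubulin genes are shown for Elf5, Dsp, Vim, Timp1 and Tubb3 (GRCm38.p6, RefSeq, 250 bases before to 50 after the transcript start). Capitals mark matches, on either strand, to the letters CACCTG (an E-box bound by Zeb and Snail factors), CCGGAA (an ETS core), GCCNNNGGC (AP-2) and GGGCGG (a GC box), some of which overlap. Elf5, Dsp and Tubb3 were added after values were seen.
Elf5 promoter, chr2:103423818-103424117, plus strand: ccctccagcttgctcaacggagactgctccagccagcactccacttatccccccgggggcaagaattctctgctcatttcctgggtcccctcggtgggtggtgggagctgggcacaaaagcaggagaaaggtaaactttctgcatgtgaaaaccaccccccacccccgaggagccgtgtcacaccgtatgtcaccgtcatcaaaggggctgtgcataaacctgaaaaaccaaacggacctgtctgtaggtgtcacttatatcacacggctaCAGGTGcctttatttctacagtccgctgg
Dsp promoter, chr13:38151044-38151343, plus strand: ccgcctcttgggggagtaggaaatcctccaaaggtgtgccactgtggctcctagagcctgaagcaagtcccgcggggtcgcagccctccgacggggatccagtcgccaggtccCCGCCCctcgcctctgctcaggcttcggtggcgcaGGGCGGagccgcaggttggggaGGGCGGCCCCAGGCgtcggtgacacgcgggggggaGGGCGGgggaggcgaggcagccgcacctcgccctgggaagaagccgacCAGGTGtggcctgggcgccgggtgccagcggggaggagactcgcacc
Vim promoter, chr2:13574061-13574360, plus strand: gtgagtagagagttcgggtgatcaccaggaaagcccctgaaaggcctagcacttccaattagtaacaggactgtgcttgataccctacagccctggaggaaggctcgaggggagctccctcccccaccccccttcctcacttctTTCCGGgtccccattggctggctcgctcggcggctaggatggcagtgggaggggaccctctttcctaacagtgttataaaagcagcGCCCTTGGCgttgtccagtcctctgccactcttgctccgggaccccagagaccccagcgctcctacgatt
Timp1 promoter, chrX:20869916-20870215, plus strand: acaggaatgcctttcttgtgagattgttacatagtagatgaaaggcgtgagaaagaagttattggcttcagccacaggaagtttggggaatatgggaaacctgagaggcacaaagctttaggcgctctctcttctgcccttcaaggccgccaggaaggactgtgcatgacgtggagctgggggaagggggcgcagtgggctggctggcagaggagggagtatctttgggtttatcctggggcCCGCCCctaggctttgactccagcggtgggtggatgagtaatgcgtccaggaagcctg
Tubb3 promoter, chr8:123411303-123411602, plus strand: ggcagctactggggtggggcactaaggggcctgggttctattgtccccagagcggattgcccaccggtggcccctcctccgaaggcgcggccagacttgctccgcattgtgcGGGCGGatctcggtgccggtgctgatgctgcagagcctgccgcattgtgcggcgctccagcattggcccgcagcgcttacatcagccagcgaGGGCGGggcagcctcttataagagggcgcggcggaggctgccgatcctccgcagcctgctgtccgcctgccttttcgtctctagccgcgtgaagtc
The promoters of Elf5 and Dsp each hold 1 CACCTG, and those of Vim, Timp1 and Tubb3 hold none. The gained promoters of Cdkn2a, Cdkn2b and Mtap hold none either. The region over the Elf5 promoter had 15.3 and 10.7 CPM in PB3-ERI-R, against 0.370 and 0.137 CPM in PB3-PAC-R. Over all promoter windows, CACCTG was present in 21.8% of the 5607 that met a gained region, 16.0% of the 949 that met a lost region, 13.5% of the 5750 that met a region not called, 21.8% of the 20511 that met no region and 20.2% of all 32817. The AP-1 letters TGANTCA were in 19.3% of windows that met a lost region, 4.55% that met a gained region and 7.81% of all. None of the 5 promoters printed holds them. The Grainyhead letters AACNNGTT were in 3.48% of windows with a gained region, 3.90% with a lost region and 4.20% of all. Windows with gained and lost regions also differed in median GC content, 62.0% and 58.3%. These matches describe letters only, and several windows can belong to 1 gene.

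Transcription factors of the EMT were not shifted one way. Of 19 measured loci, 8 were gained and 7 lost, with a median log2 fold change of 0.20, or 5 and 7 with a median of -0.05 from regions within 10 kb. Zeb1, a repressor of epithelial genes, had 62.3 and 59.7 CPM in PB3-ERI-R, against 133.2 and 115.9 CPM in PB3-PAC-R, a log2 fold change of -1.03 ± 0.12 (adjusted p = 3.39e-05). Of its 7 regions 4 were lost and 1 was gained. Zeb2 was lost at -0.71 ± 0.09 and Prrx1, a mesenchymal homeobox factor, at -1.97 ± 0.11. Snai1 and Snai2, which encode Snail and Slug, did not pass the threshold. Snai1 had 304.1 and 269.5 CPM in PB3-ERI-R and 262.1 and 244.5 CPM in PB3-PAC-R. Twist1 was gained at 0.64 ± 0.11, and Six2, a homeobox factor of kidney progenitors, at 5.70 ± 0.56. Sox9, which marks progenitors in many epithelia, had 646.8 and 541.6 CPM in PB3-ERI-R, against 122.9 and 105.2 CPM in PB3-PAC-R. Fosl1, an AP-1 subunit, had 31.6 and 40.2 CPM in PB3-ERI-R, against 160.9 and 143.9 CPM in PB3-PAC-R.

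Mesenchymal and matrix genes were mostly less accessible in PB3-ERI-R. Of 48 measured loci, 31 were lost and 6 gained, with a median log2 fold change of -0.91, against 31.0% lost in the background. Without PB3-PAC-R replicate 2, 32 were lost and 3 gained. Timp1, an inhibitor of matrix proteases, had 0.536 and 1.84 CPM in PB3-ERI-R, against 26.5 and 29.0 CPM in PB3-PAC-R. Lox, which cross-links collagen, had 1.34 and 2.17 CPM in PB3-ERI-R, against 39.0 and 31.4 CPM in PB3-PAC-R. Axl, a receptor tyrosine kinase of mesenchymal cells, had 28.9 and 29.6 CPM in PB3-ERI-R, against 142.7 and 116.6 CPM in PB3-PAC-R. Log2 fold changes were -4.60 ± 0.34, -4.35 ± 0.30 and -2.15 ± 0.16, and the lines were far apart at each. Col3a1, a fibrillar collagen, and Pdgfrb, a receptor of pericytes and fibroblasts, were lost at -3.66 ± 0.30 and -2.68 ± 0.26. Cdh2, which encodes N-cadherin, was lost at -0.76 ± 0.11, but stood at 0.98 (adjusted p = 2.31e-05) after the window correction. Fn1, which encodes fibronectin, had 110.4 and 102.6 CPM in PB3-ERI-R and 93.3 and 98.7 CPM in PB3-PAC-R (adjusted p = 0.308). Postn, which encodes periostin, was gained at 1.79 ± 0.14.

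Vim, the mesenchymal filament vimentin, was an extreme case of opposite changes in 1 locus. Summed, it had 123.9 and 122.4 CPM in PB3-ERI-R, against 192.5 and 163.8 CPM in PB3-PAC-R, a log2 fold change of -0.53 ± 0.13 (adjusted p = 0.00442). Its promoter region had 3.07 and 4.32 CPM in PB3-ERI-R, against 116.1 and 97.6 CPM in PB3-PAC-R, a log2 fold change of -4.87 ± 0.20. A region 4.98 kb from the start had 24.0 and 19.7 CPM in PB3-ERI-R, against 0.123 and 0.137 CPM in PB3-PAC-R, a log2 fold change of 7.31 ± 0.42. Another region, 1.63 kb inside the gene, was gained at 2.64 ± 0.20. The summed locus turned to 0.25 (adjusted p = 0.122) after the window correction. The values of single regions are given here without that correction.

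**Figure D4:**
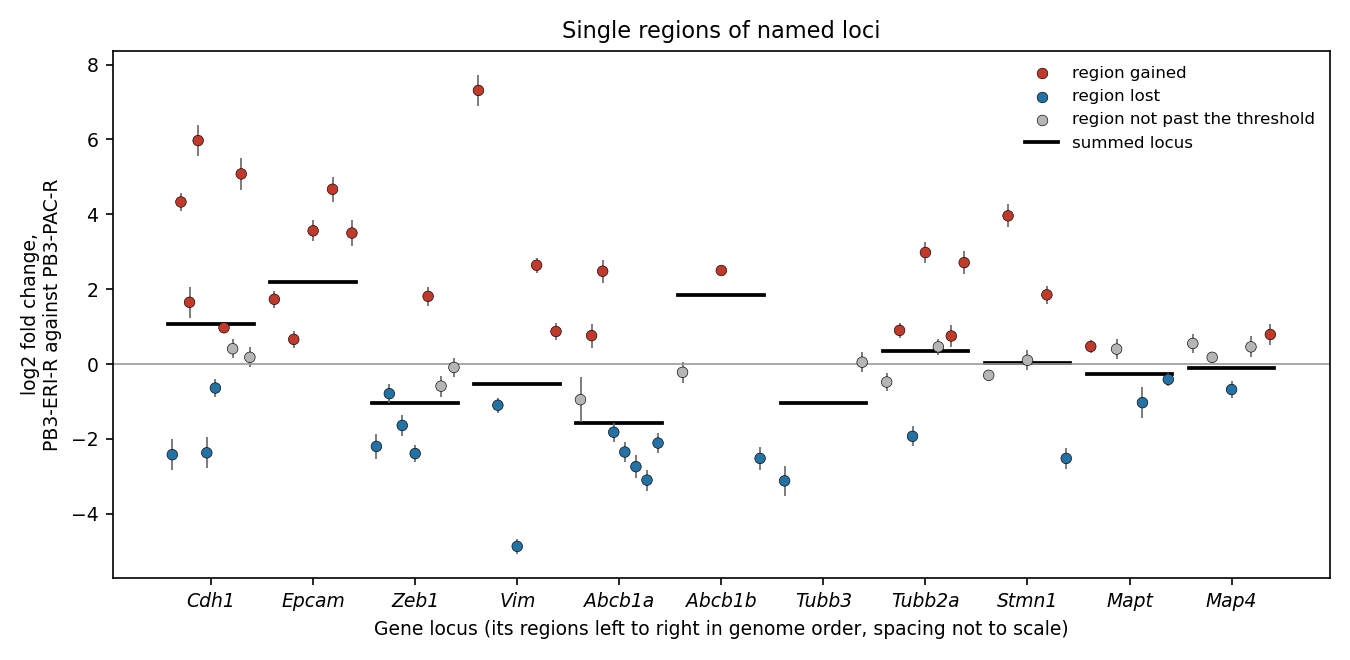
Log2 fold change (± SE) of each region of 11 loci in PB3-ERI-R against PB3-PAC-R, left to right in genome order, with the summed locus as a bar. Regions of Vim ran from -4.87 to 7.31, those of Stmn1 from -2.52 to 3.96, and all 5 of Epcam were above 0.

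Markers of other cell types were read beside the mesenchymal list. Of 9 measured fibroblast markers, 7 were lost and none gained, with summed values of 393.5 and 333.9 CPM in PB3-ERI-R against 640.9 and 584.5 CPM in PB3-PAC-R. The median log2 fold change was -1.39, or -0.54 after the window correction. Lum, Dpt and Fap had no measured region, and 7 of the 9 are also in the mesenchymal or EMT lists. Of 6 macrophage markers, 4 were lost and 1 gained (364.5 and 330.4 CPM in PB3-ERI-R, 409.0 and 427.6 CPM in PB3-PAC-R), with Adgre1, Cd68 and Lyz2 unmeasured. Of 9 endothelial markers, 4 were lost and 2 gained, and summed values were 905.8 and 808.3 CPM in PB3-ERI-R against 442.9 and 411.4 CPM in PB3-PAC-R, of which Flt1 on chromosome 5 made up 710.3 and 600.9 CPM in PB3-ERI-R. Flt1 stood at 0.28 (adjusted p = 0.0555) after the window correction, and from regions within 10 kb 1 endothelial locus was lost. Of 6 adipocyte markers, 3 were lost and 2 gained, with sums of 339.5 and 296.5 CPM in PB3-ERI-R and 301.7 and 309.6 CPM in PB3-PAC-R. The part of other cells in these results was not tested.

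Microtubule genes, the targets of both drugs, had no common direction. Of 14 measured tubulin loci, 3 were gained and 5 lost, with a median log2 fold change of -0.14. Without PB3-ERI-R replicate 1 or PB3-PAC-R replicate 2, 1 tubulin locus was gained. Tubb1, the beta-tubulin of platelets and megakaryocytes, had 0.179 and 0.542 CPM in PB3-ERI-R, against 6.25 and 6.30 CPM in PB3-PAC-R. Tubb3, the neuronal beta-tubulin that has been tied to taxane resistance in human tumours, had 123 and 101 unscaled counts in PB3-ERI-R, against 338 and 257 in PB3-PAC-R, a log2 fold change of -1.04 ± 0.18 (adjusted p = 0.000464). The loss lay in its promoter region, with 0.557 and 1.66 CPM in PB3-ERI-R against 9.69 and 9.04 CPM in PB3-PAC-R. At the other end of the gene the log2 fold change was 0.05 ± 0.26. Tuba1b, a main alpha-tubulin of dividing cells, was lost at -0.72 ± 0.11, and Tuba4a was gained at 0.93 ± 0.13. Tubb2a did not pass the threshold as a sum, with 151.2 and 139.4 CPM in PB3-ERI-R and 127.6 and 99.4 CPM in PB3-PAC-R, although 4 of its 7 regions were gained and 1 was lost. It passed at 0.55 without PB3-PAC-R replicate 1, at 0.53 from gene-end regions, at 0.40 with loess offsets and at 0.36 with only the 4 libraries compared, and stood at -0.13 after the window correction (edgeR adjusted p of 0.0286, 0.0141, 0.0319, 0.0341 and 0.508).

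Proteins that destabilize or sever microtubules were gained at 5 and lost at 6 of 15 loci, with a median of 0.02 against -0.01 over all loci. After the window correction 1 was gained and 7 lost, with a median of -0.20, and without PB3-PAC-R replicate 2 these were 3 and 4. Stmn1 encodes stathmin, which sequesters tubulin dimers, and its summed locus was alike in both lines, with 98.5 and 101.1 CPM in PB3-ERI-R and 98.3 and 97.9 CPM in PB3-PAC-R (log2 fold change 0.02 ± 0.09, adjusted p = 0.835). In the fit of gene-end regions alone, which was scaled on its own, it stood at -0.67 (edgeR adjusted p = 0.000269). Its gene-end region did not pass the threshold in the fit of all regions, at -0.30 ± 0.14 (edgeR adjusted p = 0.0651). Without scaling the sum stood at -0.08. Within it a region was gained at 3.96 ± 0.31 and another lost at -2.52 ± 0.27. Fign, which encodes the severing protein fidgetin, had 3.93 and 2.82 CPM in PB3-ERI-R, against 34.7 and 30.0 CPM in PB3-PAC-R. Kif2a, a depolymerizing kinesin, was lost at -0.91 ± 0.13, or stood at 0.04 from gene-end regions, while Kif18a, which shortens the microtubules of the spindle, had 148.4 and 151.0 CPM in PB3-ERI-R, against 43.9 and 46.3 CPM in PB3-PAC-R.

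Proteins that stabilize microtubules or bind their ends were gained at 11 and lost at 8 of 28 loci, with a median of 0.01, or 0.35 from gene-end regions (8 gained and 2 lost of 19). Mapt, which encodes tau, and Map4, its counterpart in dividing cells, did not pass the threshold, at -0.26 ± 0.14 (adjusted p = 0.144) and -0.11 ± 0.10 (adjusted p = 0.391). Mapt passed without scaling (-0.36, adjusted p = 0.0274) and after the window correction (-0.40, adjusted p = 0.0301). Map1b, a stabilizer of axons, had 28.7 and 34.3 CPM in PB3-ERI-R, against 140.5 and 147.5 CPM in PB3-PAC-R, with all 7 regions lost. Dcx, the doublecortin of migrating neurons, had 40.8 and 38.8 CPM in PB3-ERI-R, against 0.221 and 0.394 CPM in PB3-PAC-R, a log2 fold change of 6.99 ± 0.32 (adjusted p = 7.4e-08). Mapre3, a protein of growing microtubule ends, had 252.7 and 258.2 CPM in PB3-ERI-R, against 47.9 and 39.6 CPM in PB3-PAC-R. Beside Dcx, neural markers were gained at 4 and lost at 8 of 14 loci, so Dcx and Sox11, at 6.99 and 7.85, stood against losses such as Gap43 at -3.72 ± 0.44 and Nes at -1.58 ± 0.12. Summed neural markers were 597.1 and 606.2 CPM in PB3-ERI-R and 546.7 and 533.1 CPM in PB3-PAC-R, with Olig2 and Elavl4 unmeasured.

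Enzymes that modify or fold tubulin were gained at 4 and lost at 8 of 21 loci, with a median of -0.24. Atat1, which acetylates alpha-tubulin inside the microtubule, had 4.20 and 4.66 CPM in PB3-ERI-R, against 21.9 and 22.9 CPM in PB3-PAC-R. Of the deacetylases, Sirt2 was lost at -1.18 ± 0.26 and Hdac6 did not pass the threshold, at -0.18 ± 0.18 (adjusted p = 0.421). Agbl4, which trims glutamates from tubulin, was lost at -1.99 ± 0.17, and the tubulin folding factor Tbcd was gained at 1.53 ± 0.11, but stood at -0.20 (adjusted p = 0.271) from gene-end regions. Kinesin motors were gained at 8 and lost at 11 of 32 loci, with a median of -0.04, from -1.36 ± 0.10 at Kif13b to 2.16 ± 0.18 at Kif26a. From gene-end regions Kif13b stood at -0.17 (adjusted p = 0.386) and Kif26a at 0.60 (adjusted p = 0.145), and after the window correction 5 kinesins were gained and 7 lost. Kif11, the motor that separates spindle poles, was lost at -0.58 ± 0.12, and stood at 0.08 (adjusted p = 0.57) after the window correction.

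Genes of the spindle checkpoint and mitosis were gained at 12 and lost at 3 of 25 loci, with a median of 0.31. The background was 29.4% gained and 31.0% lost. The largest gains were at Mad1l1 (2.01 ± 0.17) and Cenpa (1.72 ± 0.11), which encode a checkpoint protein and the centromere histone, then Birc5 (1.31 ± 0.11) and Bub1b (1.20 ± 0.13). The first 3 lay in 5 Mb windows whose regions had shifted as a whole. The windows around Mad1l1, Cenpa and Birc5 had median log2 fold changes of 1.96, 1.64 and 1.42. Once each line was corrected for its window shifts, the values were 0.08, 0.07 and -0.13, while Bub1b kept 1.01. The list then had 6 gained and 4 lost loci, with a median of 0.07. Tacc3, Agbl5 and Katnal1 behaved in the same way, at -0.02, 0.09 and -0.34 after correction. DNA copy number was not measured, so a window shift and a change in DNA dose cannot be told apart. Of 503 windows with at least 20 regions, 26 had a median of at least 1 and 60 of -1 or less, from -4.35 to 3.35. In PB3-VIN-R against PB3-PAC-R, 1 window reached 0.5 in size, at 0.56.

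**Figure D5:**
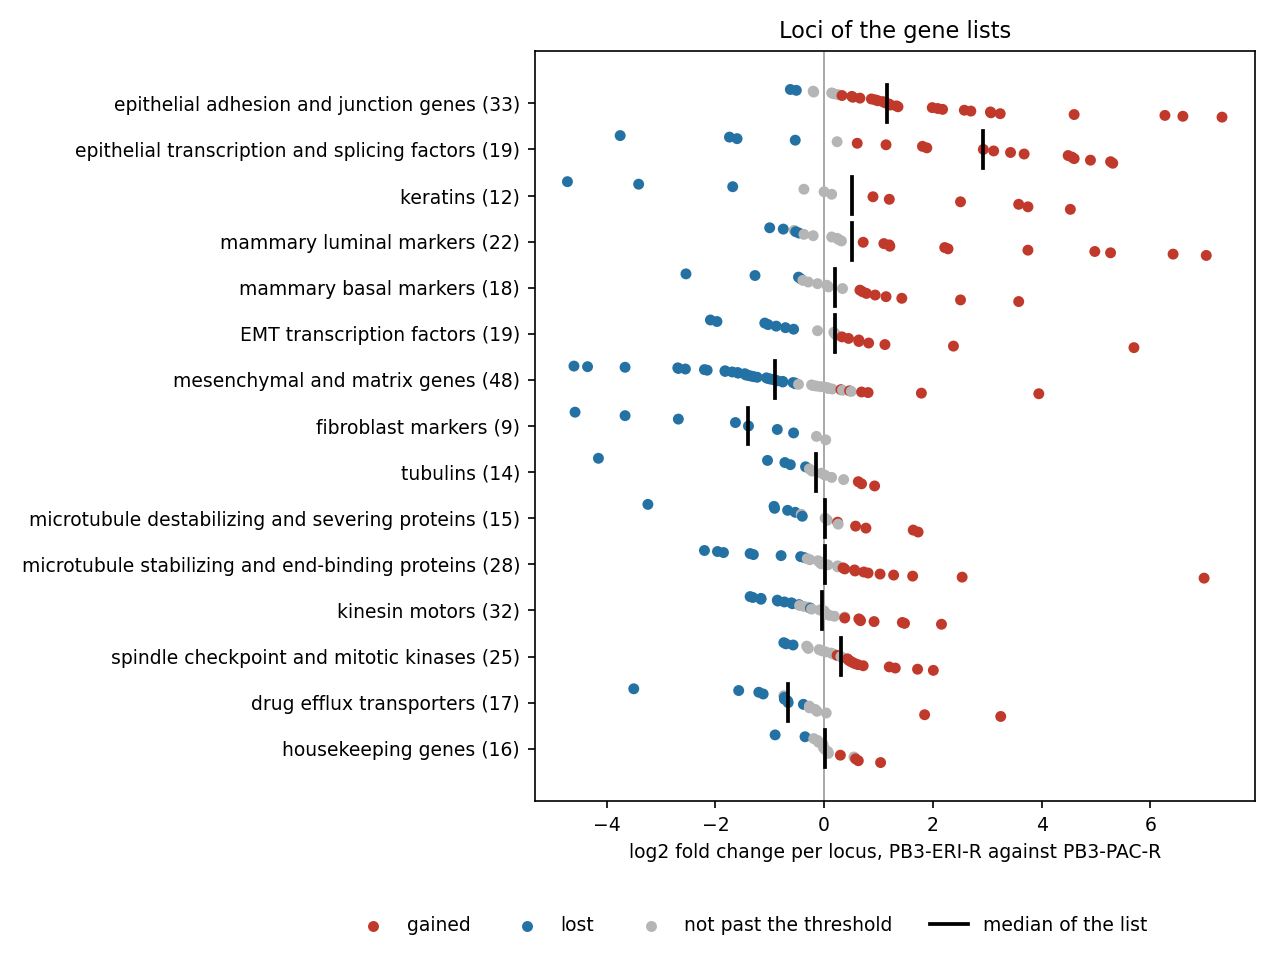
Log2 fold change of each measured locus of 15 gene lists in PB3-ERI-R against PB3-PAC-R, coloured by call, with the list median as a bar and the number of measured loci in brackets. Medians ran from -1.39 for fibroblast markers to 2.93 for epithelial transcription and splicing factors, and those of tubulins, destabilizing, stabilizing and kinesin loci lay between -0.14 and 0.02. After the window correction the outer medians were -0.54 and 1.66.

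Drug efflux transporters were gained at 2 and lost at 9 of 17 loci, with a median log2 fold change of -0.66. Over all loci, 29.4% were gained and 31.0% lost. Abcb1a and Abcb1b, the mouse genes of P-glycoprotein, which exports taxanes, vinca alkaloids and eribulin, changed in opposite directions. Abcb1b had 216.0 and 214.1 CPM in PB3-ERI-R, against 63.2 and 56.1 CPM in PB3-PAC-R, a log2 fold change of 1.85 ± 0.10 (adjusted p = 1.47e-07). Its start region alone had 219.4 and 214.2 CPM in PB3-ERI-R, against 39.6 and 36.8 CPM in PB3-PAC-R. Abcb1a had 33.5 and 48.3 CPM in PB3-ERI-R, against 119.8 and 122.9 CPM in PB3-PAC-R, a log2 fold change of -1.57 ± 0.15 (adjusted p = 6.52e-06), with 5 of 8 regions lost and 2 gained. The neighbour Abcb4, which exports phosphatidylcholine into bile, had 1161 and 1082 unscaled counts in PB3-ERI-R, against 166 and 140 in PB3-PAC-R. All 3 lie in a window with a median log2 fold change of 1.81. After correction for window shifts, Abcb1b was at -0.13 (adjusted p = 0.257), Abcb4 at 1.26 and Abcb1a at -3.56. PB3-VIN-R had 61.5 and 60.6 CPM at Abcb1b and 139.1 and 130.0 CPM at Abcb1a, near PB3-PAC-R. The copies are close paralogs, and how multiply mapping reads were handled is not given in the sources used here.

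Among the other transporters, Abcc1 and Abcg2, which also export drugs, were lost at -1.20 ± 0.13 and -1.12 ± 0.14. Abca3, a lipid transporter, had 3.22 and 3.57 CPM in PB3-ERI-R, against 38.8 and 37.9 CPM in PB3-PAC-R. Genes of drug uptake and metabolism were gained at 6 and lost at 11 of 19 loci. Nqo1, a quinone reductase, had 79.3 and 67.7 CPM in PB3-ERI-R, against 14.6 and 15.4 CPM in PB3-PAC-R. Nr1i2, the xenobiotic receptor PXR, had 0.894 and 0.867 CPM in PB3-ERI-R, against 5.74 and 6.70 CPM in PB3-PAC-R. Near gene ends alone, 9 of the 17 efflux loci were measured, of which 2 were gained and 1 lost, with a median of 0.03. In that fit, 2320 of all 10526 loci were gained and 2388 lost. In the fit of all regions, which was scaled otherwise, 10.9% of gene-end regions were lost against 45.8% in gene bodies.

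Chromatin regulators and signalling genes were mixed, as were all loci, of which 29.4% were gained and 31.0% lost. Subunits of the SWI/SNF remodelling complex were gained at 6 and lost at 8 of 26 loci (4 or 5 lost without any 1 library), among them Arid2, with 6.35 and 5.74 CPM in PB3-ERI-R against 56.5 and 60.0 CPM in PB3-PAC-R and all 4 regions lost. Chromatin writers, erasers and polycomb genes were gained at 8 and lost at 10 of 35, or 6 and 6 without PB3-PAC-R replicate 2. The polycomb genes Cbx2 and Cbx8 were gained at 1.30 and 1.68, and after window correction stood at -0.14 and 0.24. TGF-beta pathway loci were gained at 16 and lost at 8 of 36, with a median of 0.22. After the window correction 12 were gained and 9 lost (median 0.12), and from gene-end regions 7 and 6 of 30 (median 0.02). Among them Grem1, a BMP antagonist, was lost at -4.33 ± 0.41 and Tgfb2, a ligand, was gained at 1.61 ± 0.11. Wnt and Notch components were gained at 16 and lost at 8 of 37, with 4 lost without PB3-ERI-R replicate 2. The ligands Wnt5a and Wnt10b were lost at -4.32 ± 0.43 and -3.16 ± 0.20, and Lgr4, a receptor of R-spondins, was gained at 1.52 ± 0.11.

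Receptor tyrosine kinases and their ligands were gained at 19 and lost at 14 of 38 loci, against a background of 29.4% and 31.0%. Fgfr2, a receptor of fibroblast growth factors, had 118.5 and 105.6 CPM in PB3-ERI-R, against 5.52 and 3.47 CPM in PB3-PAC-R, with all 6 regions gained. Ntrk2, a neurotrophin receptor, had 206.0 and 187.2 CPM in PB3-ERI-R, against 5.00 and 2.13 CPM in PB3-PAC-R. Ddr2, a collagen receptor of mesenchymal cells, had 3.66 and 4.66 CPM in PB3-ERI-R, against 74.3 and 64.9 CPM in PB3-PAC-R, with all 6 regions lost. AP-1 and TEAD factors were gained at 6 and lost at 4 of 21 loci, interferon response genes at 6 and 3 of 16, and apoptosis regulators at 8 and 10 of 26. These counts were unstable. After the window correction AP-1 and TEAD factors were gained at 5 and lost at 7, and interferon genes at 2 and 3. Without PB3-ERI-R replicate 1, AP-1 and TEAD factors were gained at 4 and lost at 7 and interferon genes at 3 and 0, and interferon genes stood at 3 and 2 without PB3-PAC-R replicate 1 and at 5 and 1 without PB3-PAC-R replicate 2. Without PB3-ERI-R replicate 2, 6 apoptosis regulators were lost. Of the apoptosis regulators, Bik, a killer of the BCL2 family, had 73.0 and 64.7 CPM in PB3-ERI-R, against 10.2 and 8.12 CPM in PB3-PAC-R. Pmaip1, which encodes NOXA, was lost at -1.61 ± 0.15. Housekeeping genes were gained at 4 and lost at 2 of 16, with a median of 0.01, or at 1 and 5 with a median of -0.14 after the window correction, and Gapdh had 128.3 and 92.9 CPM in PB3-ERI-R and 119.9 and 104.7 CPM in PB3-PAC-R.

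The cell cycle inhibitors at Cdkn2a and Cdkn2b, which encode p16, p19Arf and p15, were open in the eribulin-resistant line alone. Cdkn2b had 77.3 and 73.9 CPM in PB3-ERI-R and no counts in PB3-PAC-R, PB3-VIN-R or PB3-Parental. Its promoter region held 1071 counts over both PB3-ERI-R libraries and 0 over both PB3-PAC-R libraries, at least 555.5-fold higher against a floor of 3 counts over the line. The promoter is shown because the other lines had no counts over it (GRCm38.p6, RefSeq), with GGGCGG and GCCNNNGGC in capitals.
Cdkn2b promoter, chr4:89310983-89311282, minus strand: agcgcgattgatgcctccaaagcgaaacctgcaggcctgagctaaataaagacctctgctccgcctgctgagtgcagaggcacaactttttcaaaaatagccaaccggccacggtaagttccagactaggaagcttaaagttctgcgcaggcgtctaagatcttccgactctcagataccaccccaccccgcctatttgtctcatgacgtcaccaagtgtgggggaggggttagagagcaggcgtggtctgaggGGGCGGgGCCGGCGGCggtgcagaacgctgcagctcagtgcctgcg
Around it, chosen after values were seen, ran 21 consecutive regions from 89128152 to 91376744 of chromosome 4 (2249 kb) with a mean under 3 CPM in PB3-PAC-R. Most of this length held no measured region. All but the last region ended by 89528288, and the last, near Elavl2, began at 91376389 and had 16 and 12 counts in PB3-PAC-R. All 21 were gained in PB3-ERI-R, a direction that choosing them for low values in PB3-PAC-R favoured. Their summed counts were 7070 and 5671 in PB3-ERI-R, 1 and 1 in PB3-VIN-R, 116 and 97 in PB3-PAC-R and 192 and 82 in PB3-Parental. The region before this block (chr4:89105508-89105781) had 47 and 60 counts in PB3-ERI-R, against 77 and 84 in PB3-PAC-R. The region after it (chr4:92311925-92312256) had 5 and 2 in PB3-ERI-R, against 270 and 273 in PB3-PAC-R. A loss of the DNA and closed chromatin cannot be told apart from counts alone. Of the 21 regions, 10 had no counts in PB3-PAC-R and 19 had none in PB3-VIN-R. The remaining loci of the list of cell cycle inhibitors and G1 cyclins were gained at 3 and lost at 7 of 18.

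Beyond the chosen lists, the single regions with the widest differences were named within limits. They needed an average log2 CPM of at least 3 and a gene within 50 kb, with 1 region per gene. Wider differences outside these limits were left out, such as other regions of the block around Cdkn2b. Those named lay mostly in gene bodies or between genes. Among those gained, the region in Auts2, a neuronal regulator of transcription, had 1102 and 648 counts in PB3-ERI-R, against 1 and 3 in PB3-PAC-R, a log2 fold change of 9.31 ± 0.40. A region 1.47 kb from a transcript start near Micall2 had 156.3 and 130.8 CPM in PB3-ERI-R, against 0.247 and 0.205 CPM in PB3-PAC-R. The others were near Mtap, Naaladl2, Luzp2, Gm9758 and Rbms3. Mtap, a methionine salvage enzyme, lies inside the block on chromosome 4. Among those lost, a region in Nkain3 had 0 counts in both PB3-ERI-R libraries, against 156 and 205 in PB3-PAC-R, at least 77.3-fold lower. A region in Dlgap1, a scaffold gene of synapses, had 0 and 0.221 CPM in PB3-ERI-R, against 37.2 and 37.5 CPM in PB3-PAC-R. The rest were near Rin2, Nefm, Lcmt1, Kcnh8, Ubr4 and Dscam. Over all regions, 29 gained ones had no counts in PB3-PAC-R and 25 lost ones had none in PB3-ERI-R.

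Loci whose regions all moved together included neural and developmental genes in both directions. Sox11, a factor of neural progenitors, had 83.3 and 78.7 CPM in PB3-ERI-R, against 0.147 and 0.552 CPM in PB3-PAC-R, a log2 fold change of 7.85 ± 0.33 (adjusted p = 4.32e-08). Adamts18, a secreted protease, had 242.9 and 217.2 CPM in PB3-ERI-R, against 0.809 and 1.65 CPM in PB3-PAC-R. Pcsk5, a proprotein convertase, Shtn1, Kcnk1 and Steap4, a metalloreductase, were gained at 6.14 to 6.76. Of those lost, Lingo2 had 1.88 and 4.12 CPM in PB3-ERI-R, against 123.9 and 131.3 CPM in PB3-PAC-R, with all 10 regions lost. Its window had a median log2 fold change of -4.32, and after correction the locus stood at -1.31. Ntm and Cdh6, cell adhesion genes, and Grm7, a glutamate receptor, were lost at -5.58 ± 0.22, -5.40 ± 0.27 and -5.59 ± 0.30. Gm47655, 4930474N05Rik, Naa11 and Tafa1 completed this group.

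The second destabilizer gave few calls against paclitaxel. In PB3-VIN-R against PB3-PAC-R, 5 loci were called, 0.0334% of those tested, and no member of any list was among them. Gabrb1, a GABA receptor subunit, had 22.9 and 25.6 CPM in PB3-VIN-R, against 7.28 and 7.09 CPM in PB3-PAC-R, a log2 fold change of 1.75 (adjusted p = 0.042), and 1.25 and 1.84 CPM in PB3-ERI-R. Hs6st2, a heparan sulfate sulfotransferase, had 28.0 and 27.9 CPM in PB3-VIN-R, against 9.71 and 9.46 CPM in PB3-PAC-R, and 32.2 and 31.0 CPM in PB3-ERI-R. Kcnmb2, a potassium channel subunit, had 79.6 and 77.7 CPM in PB3-VIN-R, against 39.4 and 34.0 CPM in PB3-PAC-R. These 3 were higher in PB3-VIN-R (0.0200% of loci), and the other 2 were lower (0.0134%). Fundc2 had 0.473 and 0.414 CPM in PB3-VIN-R, against 2.43 and 2.99 CPM in PB3-PAC-R, and Zfp882 had 5.16 and 3.95 CPM in PB3-VIN-R, against 15.0 and 14.3 CPM in PB3-PAC-R. Of the 5 called regions, 2 lay in the block around Cdkn2b, where PB3-VIN-R had 0 and 0 counts against 41 and 27 in PB3-PAC-R at the more open one. These calls were not stable: leaving out any 1 library of PB3-VIN-R or PB3-PAC-R left 0 called loci, while DESeq2 called 33 loci and 60 regions. A p that misses the threshold does not show that these lines were alike elsewhere.

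At loci where PB3-PAC-R differed from the untreated line, PB3-ERI-R could lie with either. PB3-PAC-R against PB3-Parental gave 16 called loci, 0.107% of those tested. C130074G19Rik had 1.18 and 1.18 CPM in PB3-PAC-R, against 16.3 and 17.1 CPM in PB3-Parental, and 24.1 and 18.7 CPM in PB3-ERI-R. Pax6, an eye and brain factor, had 1.47 and 1.34 CPM in PB3-PAC-R, against 14.4 and 17.1 CPM in PB3-Parental, and 0.894 and 0.758 CPM in PB3-ERI-R. Setbp1 had 27.1 and 24.7 CPM in PB3-PAC-R, against 7.09 and 4.11 CPM in PB3-Parental, and 5.10 and 3.57 CPM in PB3-ERI-R. Of these, Pax6 alone did not pass the threshold in PB3-ERI-R against PB3-PAC-R, with an adjusted p of 0.195. Ccdc30 and Tlx3, a homeobox factor, were lower and Pom121l12 higher in PB3-PAC-R than in PB3-Parental. Tlx3 had 63.4 and 60.5 CPM in PB3-ERI-R, against 2.21 and 1.26 CPM in PB3-PAC-R.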

How the data were processed

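ATAC-seq was done on 8 libraries of 4 lines, 2 per line. Per the submitters' processing notes, the upstream tools, listed without roles, included MACS2 2.1.1, featureCounts, Bowtie2 2.2.6, Picard, deepTools, cutadapt 1.9.1 and bcl2fastq 2.20.0.422, and the build was mm10. The sources used here do not state whether reads or fragments were counted, or any shift for transposase insertion. The authors deposited raw counts per region. The deposited peak lists, 1 per line, hold a score, a fold enrichment as a ratio and −log10 p and q values per peak, which are the authors' own. The deposited consensus list was not used.

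Regions (57417, of 73 to 2316 bp) were assigned to the nearest protein-coding gene within 50 kb (RefSeq, GRCm38.p6), and counts of a gene's regions were summed to loci. Counts were tested with edgeR 4.0.16 (filterByExpr, TMM, quasi-likelihood, 1 mean per line over all 8 libraries) in R 4.3.3, with Benjamini-Hochberg adjustment over all features and a threshold of 0.05. The code was tested on simulated counts. SE is the absolute log2 fold change over the square root of F. For the window correction, each line was shifted by its median log2 difference from PB3-Parental in 5 Mb windows with at least 20 regions. Depth was 10521964 to 24052237 counts, and 3 counts corresponded to 0.125 to 0.285 CPM. Intervals and floors (3 counts, 95%) cover counting error only. Overlaps used bedtools 2.31.1.

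The members, the 30 gene lists and the rules were chosen with earlier results of these data known. Genes named were the 8 gained and 8 lost regions and loci with the widest differences (loci with at least 3 regions, all called one way), up to 4 loci per list by adjusted p, fixed genes of interest, and the called loci of the other contrasts. Further list members were named for their known role after values were seen. Of the promoters the rule gave, 3 are printed. Loci that the rule gave and that are not described are not reported here. Alternatives were DESeq2 1.42.0, other scalings, no filter, other distances, fewer libraries, a replicate block and leaving out each library.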

Additional observations from a re-analysis of the deposited data

How the results depend on the processing

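In PB3-ERI-R against PB3-PAC-R, leaving out each library in turn left 38162 to 39333 called regions and 7590 to 8131 called loci. Loci built from regions within 1 kb of a gene end and scaled on their own gave 4708 called loci, 2320 gained and 2388 lost. A minimum absolute log2 fold change of 1 gave 4424, and the main fit 9037. The contrast of PB3-VIN-R with PB3-PAC-R was small and unstable. Its 5 regions became 3 with DESeq2 size factors, 3 without scaling, 60 with DESeq2, 0 with only the 4 libraries compared and 0 to 5 without single libraries. Its 5 loci became 33 with DESeq2, 0 with only the 4 libraries and 0 whenever a library of either line was left out. Peaks of PB3-ERI-R shared with PB3-PAC-R were 58.12% at a reciprocal overlap of 50%, against 63.47%.

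The labels give the lines shared replicate numbers and no shared culture or day, so the libraries were not taken as paired. Deviations of same-numbered libraries correlated at 0.0729 to 0.446 over regions and 0.152 to 0.513 over loci in the 6 pairs of lines, 0.182 and 0.263 between PB3-ERI-R and PB3-PAC-R and 0.446 and 0.513 between PB3-VIN-R and PB3-PAC-R. With the number as a replicate block, 45013 regions and 10413 loci were called in PB3-ERI-R against PB3-PAC-R, and 226 regions and 60 loci in PB3-VIN-R against PB3-PAC-R. With it Mapt (adjusted p = 0.0161) and Tubb2a (adjusted p = 0.00162) passed the threshold.

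Of the 136 loci tracked under every alternative, 16 changed sign under the window correction: Abcb1b -0.13, Actb -1.31, Birc5 -0.13, Cbx2 -0.14, Chd7 1.31, Katnal1 -0.34, Kif21a 0.12, Mafk -0.02, Pgk1 -0.13, Slco5a1 0.57, Smarcd3 -0.11, Smurf1 -0.03, Tacc3 -0.02, Tek 1.23, Tubb2a -0.13 and Vim 0.25. Of loci named beyond these, Cdh2 (0.98), Kif11 (0.08), Pax6 (0.10), Snai1 (-0.12) and Snai2 (-0.03) did so too, the last 3 without a call in either fit. With gene-end regions alone, scaled on their own, Kif2a stood at 0.04, Slco2a1 at 0.02, Stmn1 at -0.67 and Tbcd at -0.20. Fcgr1 stood at -0.35 with regions within 10 kb, and Stmn1 at -0.08 without scaling. The cause of these changes was not tested. The mesenchymal list had 18 lost loci of 28 measured from gene-end regions and 28 to 33 under the other alternatives.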

Other observations

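All 3 measured regions of chromosome Y, between 90718623 and 90744941, were gained, and they were chosen after values were seen. They share 1 nearest gene, Gm52481, and no region was measured elsewhere on this chromosome. Whether any line carries chromosome Y was not tested, and how multiply mapping reads were handled is not given. The highest had 891 and 871 counts in PB3-ERI-R, against 53 and 53 in PB3-PAC-R, a log2 fold change of 4.70 ± 0.22. PB3-VIN-R had 85 and 81 counts there and PB3-Parental 67 and 47. The other 2 were gained at 4.94 ± 0.39 and 3.94 ± 0.33.

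Chromosomes differed in the balance of gains and losses. On chromosome 5, 52.2% of regions were gained and 29.1% lost, and on chromosome X 53.2% and 29.1%. On chromosome 19, 19.8% were gained and 44.0% lost. Whether DNA dose moved with these shares was not tested.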
